A study of Drosophila melanogaster with 12 samples.

Results

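Kc167 cells treated with double-stranded RNA (dsRNA) against Pc and ph were compared with cells labelled as cultured alone. The comparison uses the 3 arrays titled for the double knockdown (Pc/ph) and the 3 titled control, chosen by their titles, out of 12 arrays in the series. The other 6 arrays are 3 of cells given dsRNA against PTIP and 3 of cells given dsRNA against Pc, ph and PTIP together. All 12 entered one linear model, and the PTIP arrays serve below as a second group to set Pc/ph cells against.

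Polycomb repressive complex 1 (PRC1) holds developmental genes silent in cells where they are not needed. Pc is its chromodomain subunit, which binds histone H3 methylated at lysine 27, and ph is the subunit whose SAM domain forms polymers. Its classic targets in flies are the Hox genes, which give body segments their identity, and many other genes for transcription factors of the embryo, the head and the imaginal discs. PTIP is a BRCT-domain protein found in complexes that methylate histone H3 at lysine 4.

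Kc167 is an established Drosophila melanogaster cell line of embryonic origin with hemocyte-like features. Per the labels, 1000000 cells per well received 15 µg of dsRNA, serum was brought to 5% after 1 h, and RNA was taken after 6 days in culture. The control source is given as the cells alone, so the presence of any dsRNA cannot be told apart from the loss of Pc and ph in the comparison with control. Nothing in the labels says that replicates came from separate cultures, and the p-values therefore measure the spread between these arrays, which may be technical.

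The replicate 1 arrays of all 4 groups stood apart from the other 8. Their median log2 signals lay between 5.62 and 5.77, against 5.83 to 5.88 for replicates 2 and 3, and they parted from the rest on the leading principal component, which held 68.1% of the variance. The fit carries the replicate number as a 3-level block, a choice set for this comparison and not drawn from that separation. Replicate 2 minus replicate 3 correlated at -0.25 between control and Pc/ph cells, so pairing of numbers 2 and 3 was not seen there. Signal from Y-linked genes, which this female line does not carry, marks background: over 9 probe sets the highest value per array was 5.13 to 5.57 in Pc/ph cells and 5.15 to 5.49 in control cells. Hemocyte markers were well above that range, with srp, the hemocyte GATA factor, at 12.03 to 12.14 in Pc/ph cells and 11.96 to 12.01 in control cells, and Hml, the clotting protein hemolectin, at 12.89 to 13.36 and 12.52 to 13.13. The glial factor gene repo and the germline helicase gene vas stayed within the Y-linked range on all 6 arrays.

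Pc transcript was low in every Pc/ph array. It had log2 signals of 6.18, 6.96 and 7.18 in Pc/ph cells (replicates 1, 2 and 3 here and throughout), against 8.38, 9.46 and 9.47 in control cells. All Pc/ph values lay under all control values, and the mean stood at 19.9% of control. The fitted difference was -2.33 ± 0.20 (log2, SE of the fit, n = 3 arrays per group here and throughout), with an adjusted p of 2.51e-04 in limma, while without the replicate block the adjusted p was 0.494. The level of ph was not analysed here. RNA came from whole cultures, in which a change in the share of cells that express a gene and a change in RNA per cell cannot be told apart.

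Psc, the PRC1 subunit that compacts chromatin and binds the ubiquitin ligase Sce, moved the other way. Psc had 9.62, 10.27 and 10.4 in Pc/ph cells, against 8.04, 8.45 and 8.05 in control cells. The groups did not overlap, and Psc rose by 1.92 ± 0.18 (adjusted p = 4.69e-04). The remaining 4 measured PRC1 genes were not called. The differences were -0.01 ± 0.11 for Sce, 0.06 ± 0.09 for the SAM-domain gene Scm, -0.01 ± 0.12 for the RING-finger gene l(3)73Ah and 0.39 ± 0.10 for RYBP, whose adjusted p was 0.0954. None of 12 measured genes of PRC2, PhoRC and PR-DUB was called, with differences of -0.12 to 0.29, and none of 22 Trithorax group, COMPASS and Brahma genes was called, with differences of -0.53 to 0.26. At an unadjusted limma p under 0.05 the counts were 1 of 12 and 2 of 22.

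At an adjusted p under 0.05, hereafter called, 287 of 18769 probe sets (1.53%) differed between Pc/ph and control cells, 133 higher and 154 lower. Taken as genes with 1 symbol, 240 of 11982 (2.0%) were called, of which 110 rose (0.918% of all genes) and 130 fell (1.08%). The rises were the larger changes. A difference of at least 2-fold was reached by 58 rises and 45 falls, at least 4-fold by 17 and 4, and at least 8-fold by 6 and 1. All 240 genes differed in the same direction in all 3 same-numbered pairs, a property of 35.3% of all genes. The Pc/ph arrays lay wholly above the control arrays for 74 of the 110 rises, where 3.22% of all genes do, and wholly below for 87 of the 130 falls, where 3.41% do. The calls were made from these same arrays with the replicate number as a block, so these counts are in part built in and not separate support.

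The 2 sets of genes started from different levels. Genes that rose had a median control signal of 7.2 and a median of 9.16 in Pc/ph cells, while genes that fell stood at a median of 7.81 in Pc/ph cells and 8.93 in control cells. The median control signal of all genes was 6.61. For 8 of the rises (eya, sm, sens-2, CG14441, dac, gsb-n, capu and disco) each control array was at or under its own highest Y-linked value, as it was for 21.2% of all genes. With the highest Y-linked value of any control array as the limit, cad, disco-r, peb, oc and scro joined them, making 13 rises, and 24.9% of all genes met it. The 1 fall under that limit was Gbs-76A. For such genes the log2 difference is measured from background, and no exact fold is given.

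**Figure D1:**
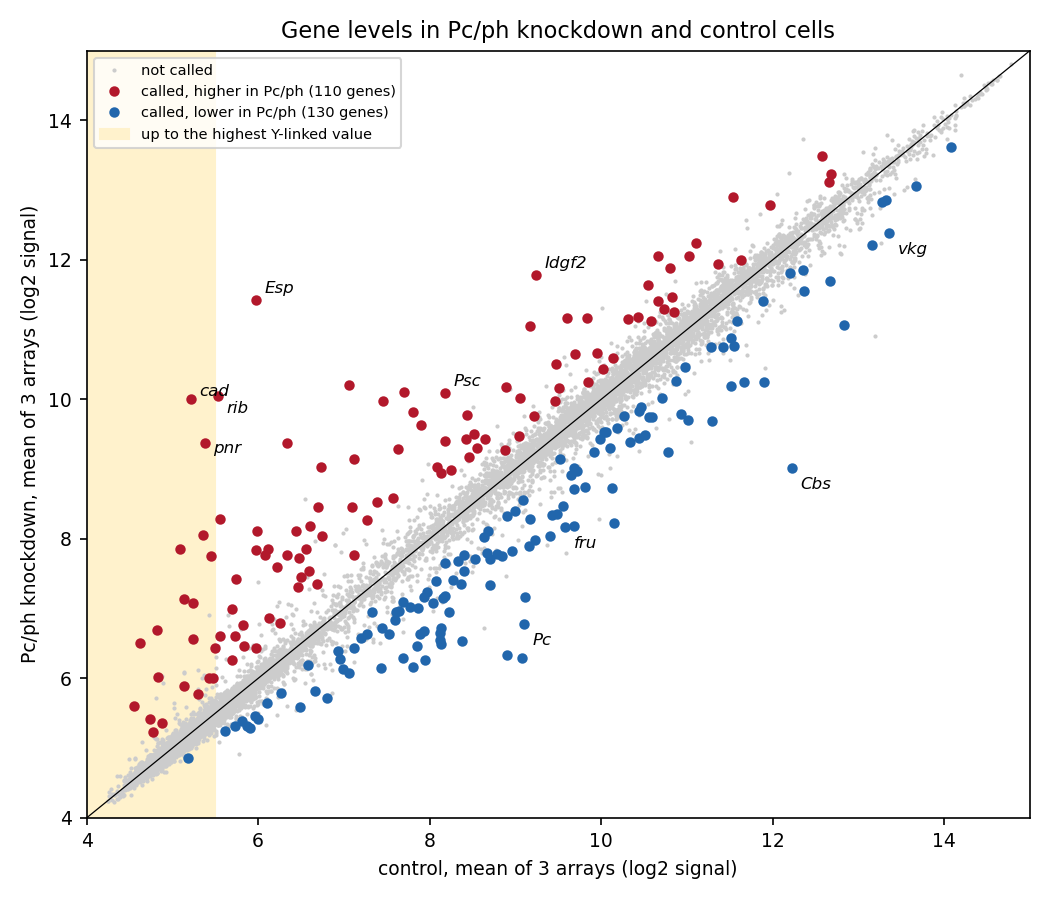
Mean log2 signal of each gene in Pc/ph knockdown cells (vertical axis, 3 arrays) and in control cells (horizontal axis, 3 arrays), with 110 called rises in red, 130 called falls in blue and the line of equal signal. Esp, cad, rib and pnr leave the low end of the control axis for signals above 9 in Pc/ph cells, while Cbs and Pc are the called falls farthest from the line among the labelled genes.

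Among Hox genes and their partners in segment identity, 6 of 13 measured genes rose and none fell (46.2% called, against 2.0% of all genes). The median difference was 0.52 against -0.0006 over all genes. The gene lists here and below were chosen with earlier results of these data known, so their shares are descriptions and not tests of enrichment. Of the measured Hox genes Dfd, Antp, Scr and pb, only Dfd was called. The homeobox gene cad, which specifies the posterior of the embryo, was near background in control cells. It had 9.76, 10.02 and 10.24 in Pc/ph cells, against 5.18, 5.16 and 5.3 in control cells, a difference of 4.79 ± 0.20 (adjusted p = 1.18e-06). Against the highest Y-linked control value the Pc/ph mean was at least 22.8-fold higher. The head Hox gene Dfd started above background. It had 7.46, 7.94 and 7.93 in Pc/ph cells, against 6.17, 6.48 and 6.38 in control cells, and rose by 1.44 ± 0.10 (adjusted p = 5.22e-05).

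The zinc-finger genes that act beside the Hox genes rose as well. The trunk gene tsh had 7.13, 7.89 and 8.24 in Pc/ph cells, against 5.13, 5.74 and 5.47 in control cells (2.31 ± 0.25, adjusted p = 0.00134). Its paralog tio, with 6.0, 6.07 and 5.94 in Pc/ph cells against 5.58, 5.42 and 5.44 in control cells, rose by 0.52 ± 0.10 (adjusted p = 0.0286), a small step just above background. That call was kept only when Pc/ph replicate 1 was the array left out, and the adjusted p was up to 0.14 otherwise. The neighbouring paralogs disco and disco-r, which act with Dfd in the head segments, had control signals of 4.79 to 5.18. In Pc/ph cells disco had 6.82, 6.66 and 6.6, against 4.8, 4.89 and 4.79 in control cells, and disco-r had 7.46, 7.08 and 6.87, against 5.18, 5.12 and 5.11. Both groups were cleanly separated for each gene, and the differences were 1.87 ± 0.14 and 2.0 ± 0.11. A second probe set for disco-r read 5.35 in both groups and showed a difference of 0.00 ± 0.08.

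Antp, Scr and pb, the measured Hox genes besides Dfd, were not called. The list names 19 genes, of which 13 were measured. Hox genes beyond those named here, such as Ubx and Abd-B, had no probe set with 1 symbol and so no gene-level value here. Probe sets with several symbols or none were tested but not assigned to genes. Whether these Hox genes changed was therefore not determined. Antp, the Hox gene of the thorax, had 7.29, 5.44 and 5.51 in Pc/ph cells, against 5.51, 4.83 and 5.05 in control cells, and its difference of 0.95 ± 0.29 was not called (adjusted p = 0.196). The Pc/ph array of replicate 1 was the only one clearly above background. Further Antp probe sets, also at low signal, gave 0.47 and -0.07 and were not called. Scr, with 4.43 to 5.0 in Pc/ph cells and 4.57 to 5.07 in control cells, and pb, with 4.49 to 5.12 and 4.7 to 5.1, stayed at background in both groups. The same held for the differences of zen, zen2, bcd and ftz, which were -0.09 to 0.09 with none called.

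Genes for head and eye patterning were among the rises. In the list of homeobox and paired-type patterning genes, 5 of 63 measured genes rose (oc, Optix, mirr, gsb-n and scro) and none fell (7.94% called), with a median difference of 0.04. The head gap gene oc, also known as otd, had 8.07, 7.91 and 8.17 in Pc/ph cells, against 5.47, 5.37 and 5.23 in control cells (2.69 ± 0.32, adjusted p = 0.00246). Optix, a Six-family gene of the eye field, had 9.91, 7.38 and 7.54 in Pc/ph cells, against 5.4, 5.71 and 5.57 in control cells (2.72 ± 0.44, adjusted p = 0.013). All 3 Pc/ph arrays of Optix were above the control arrays, with replicate 1 far above the other 2. Without control replicate 1 the Optix call was lost, at an adjusted p of 0.0551.

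In the Iroquois-family gene mirr, replicate 1 was the highest array of both groups. The mirr values were 9.19, 7.57 and 7.61 in Pc/ph cells, against 6.57, 5.78 and 5.62 in control cells (2.13 ± 0.27, adjusted p = 0.00356). A second probe set for mirr gave 2.88 ± 0.45. The segment-polarity gene gsb-n had 5.73, 5.86 and 6.47 in Pc/ph cells, against 4.64, 4.99 and 4.87 in control cells, and rose by 1.19 ± 0.13 (adjusted p = 0.00114). For scro, an NK2-type gene, the rise was 0.48 ± 0.09 (adjusted p = 0.0249), and it was lost without replicate 1 or 2 of either group (adjusted p up to 0.15). Both gsb-n and scro ended close above background.

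GATA and BTB-domain factors gave some of the largest rises. Of 23 measured genes 3 rose (pnr, rib and bab2) and 1 fell (fru), 17.4% called, with a median difference of 0.07. The dorsal GATA factor gene pnr had 9.52, 9.22 and 9.39 in Pc/ph cells, against 5.17, 5.59 and 5.38 in control cells, a 16-fold change (4.0 ± 0.13, adjusted p = 4.43e-07). The BTB gene rib, which shapes trachea and salivary gland, had 9.92, 10.11 and 10.12 in Pc/ph cells, against 5.84, 5.42 and 5.34 in control cells, a 22.9-fold change (4.52 ± 0.17, adjusted p = 1.06e-06). Neither gene's groups came near each other. Control signals of both genes lay within or close above the Y-linked range, so both folds are measured from near background. The leg and ovary gene bab2 had 10.3, 9.51 and 9.64 in Pc/ph cells, against 7.55, 8.14 and 7.72 in control cells (2.01 ± 0.34, adjusted p = 0.016). Leaving out control replicate 3 or either of Pc/ph replicates 2 and 3 ended that call, at adjusted p up to 0.0832.

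In the list of T-box, forkhead, Sox, bHLH and related factors, 5 of 79 measured genes rose (peb, eya, SoxN, dac and bi), none fell (6.33% called), and the median difference was 0.01. The zinc-finger gene peb, also called hindsight, had 7.2, 6.96 and 7.09 in Pc/ph cells, against 5.36, 5.14 and 5.21 in control cells, and rose by 1.84 ± 0.09 (adjusted p = 3.67e-06). Retinal determination genes of this list left background only in part: eya, a phosphatase and coactivator, had 4.75, 5.87 and 6.16 in Pc/ph cells, against 4.25, 4.64 and 4.78 in control cells (1.04 ± 0.16, adjusted p = 0.010). The replicate 1 array of Pc/ph cells overlapped the control arrays. The neural gene SoxN rose by 0.84 ± 0.14 (adjusted p = 0.0144) and the T-box gene bi by 0.63 ± 0.09 (adjusted p = 0.00744). The SoxN groups overlapped, and eya, SoxN and bi were not called without the replicate block. The bi call was lost without control replicate 2 (adjusted p = 0.0516), the eya call without control replicates 2 or 3 or Pc/ph replicate 2 (up to 0.0698), and the SoxN call without replicate 2 or 3 of either group (up to 0.096).

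Further regulators stood among the 30 largest rises without belonging to those lists. The Hedgehog pathway's transcription factor gene ci had 8.08, 7.51 and 7.94 in Pc/ph cells, against 5.29, 6.42 and 6.22 in control cells (1.87 ± 0.32, adjusted p = 0.0174). Leaving out replicate 3 of either group or replicate 1 of the control ended the call (adjusted p up to 0.084). The zinc-finger gene noc had 7.97, 8.02 and 8.34 in Pc/ph cells, against 5.8, 6.78 and 6.73 in control cells, and rose by 1.67 ± 0.25 (adjusted p = 0.00816). Its paralog elB rose by 0.94 (adjusted p = 0.00728). The F-box gene Ppa, whose product binds the pair-rule protein Paired, rose by 1.7 ± 0.27 (adjusted p = 0.012, and up to 0.0613 without Pc/ph replicate 2 or 3). The zinc-finger gene sens-2 had 7.83, 5.8 and 5.9 in Pc/ph cells, against 4.59, 4.67 and 4.6 in control cells (1.89 ± 0.39, adjusted p = 0.0426), and was called only with all arrays or without Pc/ph replicate 1 or 2 (adjusted p up to 0.17 otherwise).

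Chosen after their values were seen, other factor genes with smaller rises were cbt (1.04), apt (1.05), klu (0.95), sqz (0.94), luna (0.75) and the head gap gene btd (0.57). Of these cbt had the highest signal, with means of 12.06 in Pc/ph cells and 11.02 in control cells. All 6 were called in limma, at adjusted p between 0.00356 for cbt and 0.043 for klu.

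**Figure D2:**
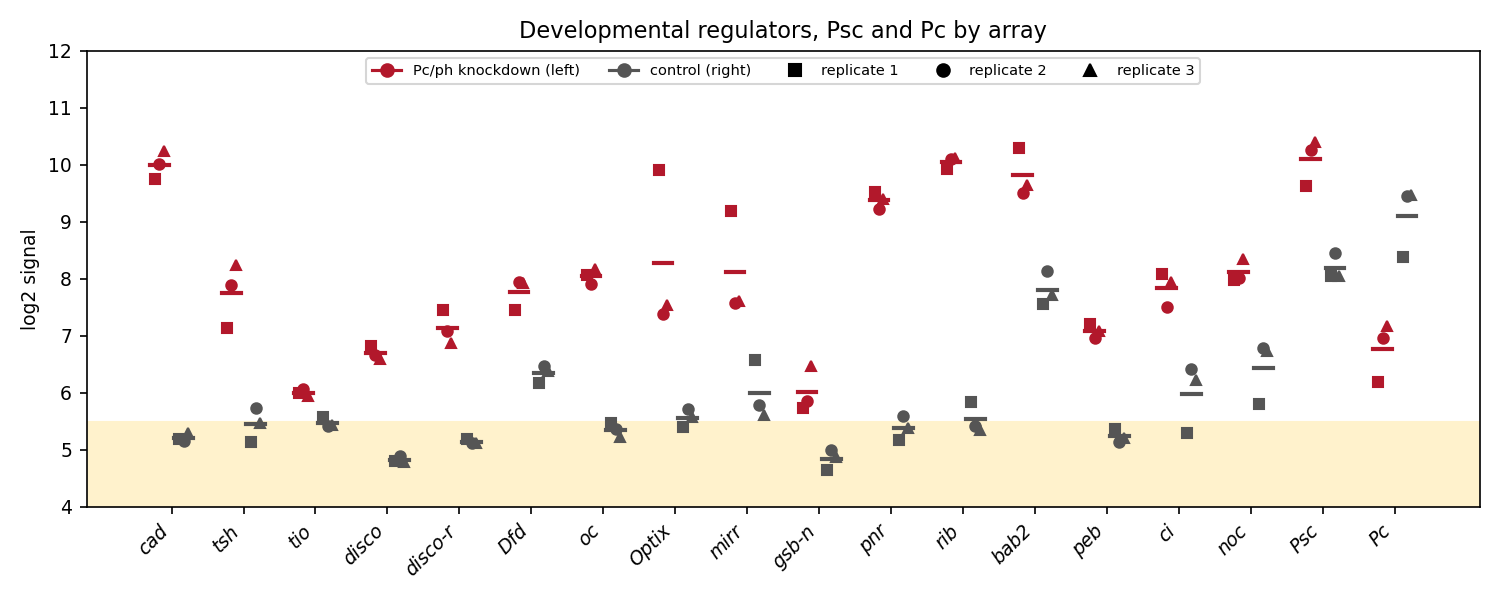
Log2 signal per array for 16 rising developmental regulators, Psc and Pc, with Pc/ph knockdown left (red) and control right (grey), one symbol per replicate, a bar at each mean and the shaded range up to the highest Y-linked control value. The Pc/ph and control arrays do not overlap for any gene shown, and in Optix and mirr the square of replicate 1 stands far above the other Pc/ph arrays.

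The largest rise of all belonged to Esp, which encodes an anion transporter of the SLC26 family. Esp had 11.59, 11.35 and 11.33 in Pc/ph cells, against 5.94, 5.98 and 6.02 in control cells, a 43.5-fold change (5.44 ± 0.26, adjusted p = 3.67e-06). Control signals of Esp were close above the Y-linked range. The endosome adaptor gene nuf had 10.05, 9.92 and 9.94 in Pc/ph cells, against 7.28, 7.56 and 7.52 in control cells (2.52 ± 0.21, adjusted p = 2.50e-04). A second nuf probe set gave 0.94 ± 0.23 and was not called (adjusted p = 0.101). The immunoglobulin adhesion gene sdk had 7.06, 8.33 and 8.16 in Pc/ph cells, against 6.04, 6.3 and 6.0 in control cells (1.74 ± 0.20, adjusted p = 0.00179). Both were clear of the control arrays.

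Also among the 30 largest rises were wake, an ankyrin-repeat gene linked to the clock control of sleep (2.41 ± 0.38), Argk1, which encodes arginine kinase (2.02 ± 0.32), and vir-1, a gene known for its induction by virus (1.73 ± 0.12). For vir-1 the values were 8.27, 10.3 and 10.33 in Pc/ph cells, against 6.51, 8.59 and 8.6 in control cells, so that the groups overlapped although each same-numbered pair differed by a like amount. The call of wake was lost without Pc/ph replicate 3 (adjusted p = 0.0511) and that of Argk1 without control replicate 1 or 3 (up to 0.0572). Argk1 was the only 1 of 18 measured muscle and mesoderm genes called (5.56%), and the muscle gene Mlc2 stayed at background on all 6 arrays. Of the 30 largest rises, 6 carry only gene-number symbols, led by CG14642 (3.15 ± 0.44), CG5397 (3.03 ± 0.40) and CG6231 (2.77 ± 0.28).

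In the list of signalling ligands and morphogens 2 of 30 rose and none fell (6.67% called). The secreted EGF receptor inhibitor gene aos rose by 0.79 ± 0.13 (adjusted p = 0.015) and the PDGF- and VEGF-type ligand gene Pvf1 by 0.53 ± 0.07 (adjusted p = 0.00645). Pvf1 had 6.78, 6.79 and 6.8 in Pc/ph cells, against 6.28, 6.23 and 6.28 in control cells. Of 25 neuronal and glial markers 3 rose and none fell (12% called): moody, a receptor of the glial blood-brain barrier (1.25 ± 0.22), nrv2, a sodium pump beta subunit (0.75 ± 0.12), and cpx, the synaptic fusion clamp complexin (0.81 ± 0.16). Their mean list level was 5.83 to 6.35 per array in Pc/ph cells and 5.78 to 6.24 in control cells. The groups overlapped for moody, nrv2, cpx and aos, and none of these was called without the replicate block. The septate junction gene Lac (0.64 ± 0.13, adjusted p = 0.0461) was the only 1 of 25 epithelial and junction markers called (4.0%). The polarity gene crb in that list had 10.82, 7.45 and 7.46 in Pc/ph cells, against 7.0, 6.48 and 6.15 in control cells, and was not called (2.03, adjusted p = 0.0887).

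Several of these smaller calls lay near the threshold. With 1 array left out the differences remained at 0.74 to 0.86 for aos, 0.70 to 0.82 for nrv2, 0.51 to 0.79 for Lac, 0.94 to 1.41 for moody and 0.60 to 1.01 for cpx. Those of aos (adjusted p up to 0.088) and Lac (up to 0.215) were lost without replicate 2 or 3 of either group. That of moody was lost without any 1 control array or without Pc/ph replicate 2 (up to 0.116), and nrv2 without control replicate 2 or Pc/ph replicate 3 (up to 0.0656). The cpx call was kept only without Pc/ph replicate 2 (up to 0.152 otherwise). Pvf1 was called whichever array was left out.

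Called genes that lie side by side in the genome were looked for among 10353 neighbouring pairs of measured genes. Both genes were called in 10 pairs, of which 6 rose together, 1 fell together and 3 went opposite ways. Of the 238 called genes placed in this order 17 lay in such a pair, where 2.0% of all genes were called. Whether the pairs outnumber those expected from that share was not tested. On chromosome arm 2L, 4 of those pairs form a single run of 5 consecutive measured genes, all higher in Pc/ph cells: CG5888, Idgf1, Idgf2, Idgf3 and dac. The Idgf genes encode secreted chitinase-like growth factors for imaginal disc cells, and dac is a retinal and leg determination factor.

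Within the run the steps differed. CG5888 had 12.29, 11.9 and 11.97 in Pc/ph cells, against 10.35, 10.88 and 10.78 in control cells (1.38, adjusted p = 0.00544). Idgf1 had 10.83, 8.17 and 8.1 in Pc/ph cells, against 7.08, 6.82 and 6.32 in control cells (2.3 ± 0.47, adjusted p = 0.0426). Idgf2 had 13.03, 11.13 and 11.19 in Pc/ph cells, against 8.56, 9.64 and 9.53 in control cells (2.54 ± 0.49, adjusted p = 0.0309). In both, replicate 1 of Pc/ph cells was by far the highest array. Idgf3, already abundant, had 13.78, 13.33 and 13.37 in Pc/ph cells, against 12.46, 12.63 and 12.65 in control cells (0.91 ± 0.17, adjusted p = 0.0236). The last gene, dac, ended near background, with 6.01, 5.11 and 5.14 in Pc/ph cells, against 4.83, 4.57 and 4.82 in control cells (0.68 ± 0.14, adjusted p = 0.0357). The groups overlapped for none of the 5 genes. With 1 array left out the differences were 1.76 to 2.64 for Idgf1, 1.85 to 2.91 for Idgf2, 0.77 to 0.98 for Idgf3 and 0.50 to 0.82 for dac, while their calls lay near the threshold. Those of Idgf1 and Idgf3 were lost whichever of the 6 arrays was left out (adjusted p up to 0.166 and 0.0979), Idgf2 was called only without Pc/ph replicate 1 (up to 0.0934 otherwise), and dac only without control replicate 3 (up to 0.148 otherwise).

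**Figure D3:**
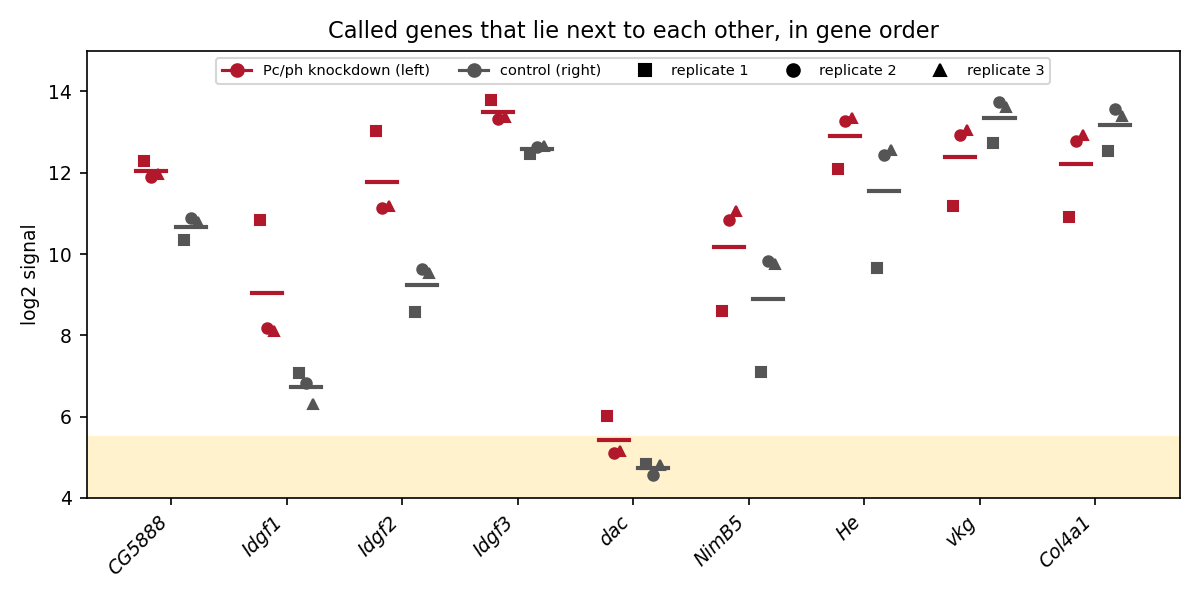
Log2 signal per array for called genes that adjoin each other, with Pc/ph knockdown left (red) and control right (grey), one symbol per replicate and a bar at each mean. CG5888 to dac is 1 run, NimB5 with He and vkg with Col4a1 are pairs, and the replicate 1 squares of Idgf1 and Idgf2 lie far above the other Pc/ph arrays.

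Hemocyte genes were called in both directions. Of 42 measured hemocyte markers 5 rose and 3 fell (19% called, against 2.0% of all genes), with a median difference of 0.21. The rises were the Idgf genes above and a neighbouring pair of surface proteins, the Nimrod gene NimB5 and He, which encodes the hemocyte antigen Hemese. NimB5 had 8.6, 10.84 and 11.07 in Pc/ph cells, against 7.09, 9.84 and 9.75 in control cells (1.28 ± 0.19, adjusted p = 0.00865). He had 12.09, 13.28 and 13.35 in Pc/ph cells, against 9.64, 12.44 and 12.55 in control cells (1.36 ± 0.29, adjusted p = 0.0496). In both genes the replicate 1 arrays of both groups were low and each Pc/ph array exceeded its own control. The NimB5 call was lost without control replicate 3 (adjusted p = 0.0553), and He was called only without Pc/ph replicate 1 (up to 0.195 otherwise). The phagocytosis receptor genes NimC1 (1.39, adjusted p = 0.331) and eater (0.57, adjusted p = 0.42) were not called, nor was Pxn (0.24, adjusted p = 0.941).

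3 genes of the basement membrane fell. The neighbouring genes vkg and Col4a1 encode the collagen IV chains, and SPARC encodes their binding protein. The values of vkg were 11.19, 12.94 and 13.04 in Pc/ph cells, against 12.74, 13.73 and 13.61 in control cells (-0.97 ± 0.19, adjusted p = 0.032). Col4a1 fell by 0.95 ± 0.19 (adjusted p = 0.0345) and SPARC fell by 0.46 ± 0.09 (adjusted p = 0.032). In the list of 17 measured matrix genes and matrix enzymes these 3 were the only calls (17.6%), while the list median was 0.14. The deepest drop was in replicate 1 for both collagens. The calls of vkg and Col4a1 were kept only without control replicate 3 (adjusted p up to 0.129 and 0.115), and that of SPARC only without Pc/ph replicate 1 (up to 0.175).

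Of 28 humoral immunity genes 2 rose and none fell (7.14% called). PGRP-LA, of the peptidoglycan recognition family, had 7.89, 7.5 and 7.39 in Pc/ph cells, against 6.21, 6.14 and 6.31 in control cells, and rose by 1.38 ± 0.14 (adjusted p = 9.51e-04). The Toll pathway inhibitor gene cact, which encodes the fly IkappaB, had 11.95, 12.33 and 12.44 in Pc/ph cells, against 10.71, 11.29 and 11.31 in control cells (1.14 ± 0.20, adjusted p = 0.0209). A second cact probe set gave 1.52 ± 0.20 (adjusted p = 0.0039). The groups were separate for both genes, and the first cact call was kept only without Pc/ph replicate 1 (adjusted p up to 0.113 otherwise).

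The largest fall was in Cbs, which encodes cystathionine beta-synthase, the entry enzyme of transsulfuration. Cbs had 9.38, 8.88 and 8.78 in Pc/ph cells, against 12.94, 11.99 and 11.75 in control cells (-3.21 ± 0.25, adjusted p = 1.47e-04), so that it stood at 10.8% of control. The 3 arrays of each group were well apart. In the list of 16 sulfur amino acid and one-carbon genes Cbs and Nmdmc, a mitochondrial folate enzyme gene, fell and none rose (12.5% called). The change of Nmdmc was small (-0.81 ± 0.17, adjusted p = 0.0459) and its call was kept only without Pc/ph replicate 1 (up to 0.24 otherwise). The list median was -0.11.

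Glycogen, trehalose and sugar genes formed the list with most falls. Of 24 measured genes 6 fell and none rose (25% called, against 2.0% of all genes), and the list median was -0.28. The number of falls was 10 after quantile normalization, 9 after cyclic loess, 11 with replicates 2 and 3 only (where 1 gene rose) and 1 without the replicate block. The members that fell are enzymes that build glycogen (Gyg, glycogenin, and AGBE, the branching enzyme) or break it down (Glyp, glycogen phosphorylase), with trehalase (Treh), fructose-1,6-bisphosphatase (fbp) and the sugar transporter gene sut1. Gyg had 8.01, 8.35 and 8.21 in Pc/ph cells, against 10.06, 9.51 and 9.49 in control cells (-1.49 ± 0.18, adjusted p = 0.00236). Treh had 9.56, 10.46 and 10.54 in Pc/ph cells, against 11.16, 11.72 and 11.66 in control cells (-1.33 ± 0.17, adjusted p = 0.0042). In fbp the difference was -1.53 ± 0.15 (adjusted p = 5.63e-04). The groups did not overlap for any of the 6 genes.

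Glyp had 9.07, 10.3 and 10.03 in Pc/ph cells, against 10.95, 10.96 and 10.88 in control cells (-1.13 ± 0.20, adjusted p = 0.0223). The changes of sut1 and AGBE were -0.98 ± 0.16 (adjusted p = 0.0119) and -0.79 ± 0.15 (adjusted p = 0.032). The Glyp call was lost without control replicate 3 or any 1 Pc/ph array (adjusted p up to 0.0728), the sut1 call without Pc/ph replicate 2 or 3 (up to 0.0629), and AGBE was called only without Pc/ph replicate 1 (up to 0.157 otherwise). A second Gyg probe set gave -0.71 ± 0.17 and was not called (adjusted p = 0.0866). Glycolytic genes of the list came close to the threshold without passing it, with -0.84 for Pfk (adjusted p = 0.0631), -0.53 for Gapdh1 (0.0564) and -0.91 for Pgm1 (0.0941). The list median was -0.50 in replicate 1, -0.14 in replicate 2 and -0.17 in replicate 3, so the shift of the list as a whole was largest in the replicate 1 pair.

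Sugar genes were also lower in PTIP cells. The median difference of the list from control was -0.46 in PTIP cells, and between Pc/ph and PTIP cells it was -0.00. The comparisons share their control arrays, so the values are given side by side. In fbp the differences from control were -1.53 in Pc/ph cells and -1.91 in PTIP cells, and in Treh they were -1.33 and -1.59. Against PTIP cells directly, fbp (0.38, 95% interval 0.05 to 0.71), Treh (0.26, -0.13 to 0.65), Glyp (-0.15, -0.61 to 0.30) and AGBE (-0.13, -0.47 to 0.21) were not called. Gyg (-0.83 ± 0.18, adjusted p = 0.0163) and sut1 (-0.64 ± 0.16, adjusted p = 0.029) were lower in Pc/ph than in PTIP cells.

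**Figure D4:**
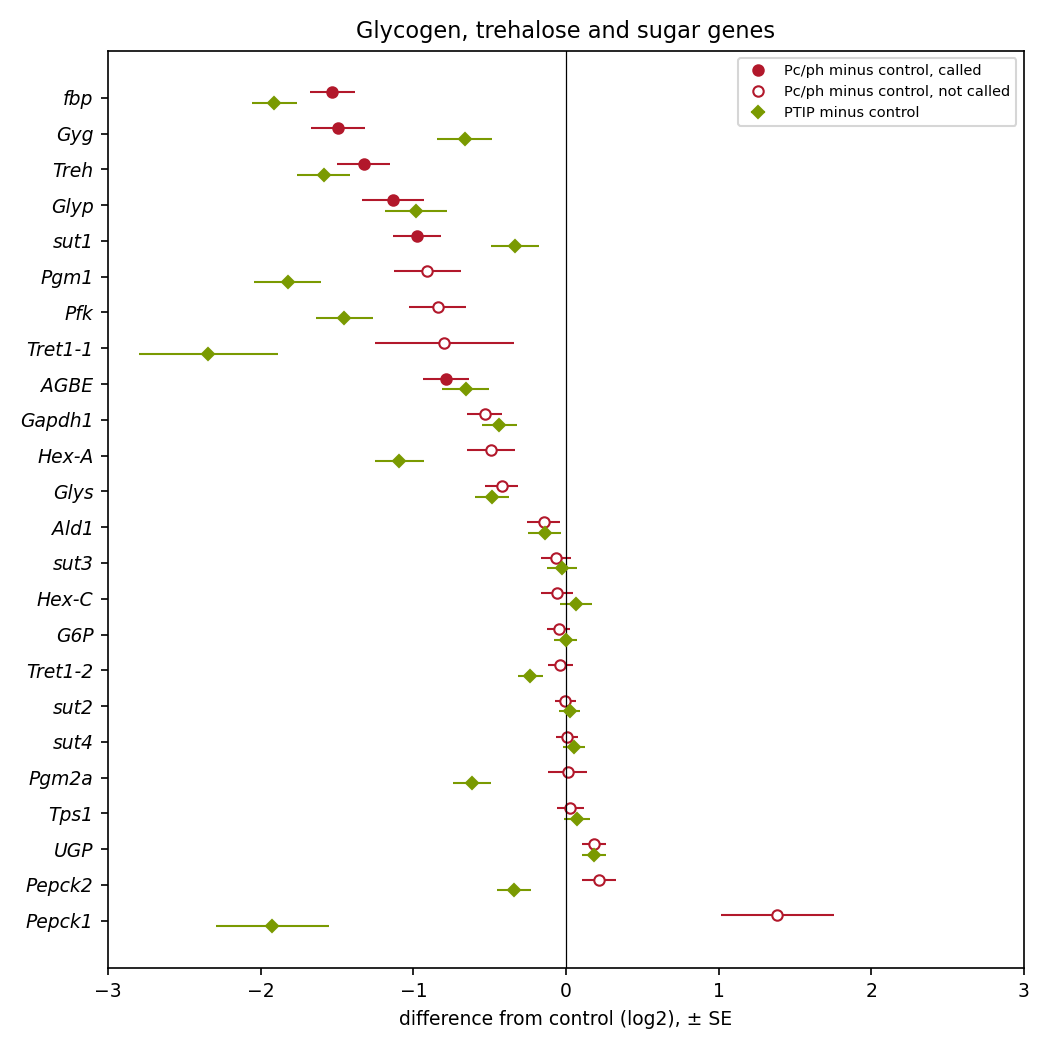
Differences from control on the log2 scale with SE for 24 glycogen, trehalose and sugar genes, in Pc/ph cells (circles, filled where called) and in PTIP cells (diamonds), n = 3 arrays per group. The 6 filled circles are fbp, Gyg, Treh, Glyp, sut1 and AGBE, and for Pgm1, Pfk and Tret1-1 the diamonds lie farther below 0 than the open circles.

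Regulators were also among the falls. The BTB gene fru, known for male courtship behaviour, had 7.45, 8.47 and 8.6 in Pc/ph cells, against 9.03, 9.94 and 9.77 in control cells (-1.41 ± 0.10, adjusted p = 9.33e-05). Its other 6 probe sets, which can read different transcripts, gave -1.78 to 0.16, and 2 of them were called. The BTB zinc-finger gene mamo had 4.84, 7.37 and 7.18 in Pc/ph cells, against 6.44, 8.71 and 8.42 in control cells (-1.4 ± 0.19, adjusted p = 0.0048). The mamo groups overlapped because both replicate 1 arrays were low, and each Pc/ph array lay under its own control. Further mamo probe sets gave -1.0 and -0.83, which were called, and -0.13 and -0.07, which were not. The Activin-type ligand gene daw fell by 1.36 ± 0.21 (adjusted p = 0.0108), a call lost without replicate 2 of either group or replicate 3 of Pc/ph cells (adjusted p up to 0.066). E(spl)mbeta-HLH, a Notch target, was the only 1 of 29 JAK/STAT, Notch and ecdysone response genes called (3.45%, against 2.0% of all genes). Its difference was -0.77 ± 0.15 (adjusted p = 0.0321), and the groups overlapped. Only without control replicate 1 did it stay called when an array was left out (up to 0.149 otherwise).

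Other falls came from transport, translation and structure. The translation initiation factor gene eIF4B had 10.26, 10.11 and 10.37 in Pc/ph cells, against 11.58, 11.72 and 11.69 in control cells (-1.41 ± 0.17, adjusted p = 0.00304). Of its 3 further probe sets, 2 gave -1.5 and -1.94 and were called, and the dimmest gave -0.36. The monocarboxylate transporter-like gene out fell by 1.47 ± 0.20 (adjusted p = 0.00544). The values of Strn-Mlck, a titin-like kinase gene, were 6.36, 6.31 and 6.19 in Pc/ph cells, against 8.41, 7.44 and 7.21 in control cells (-1.4 ± 0.19, adjusted p = 0.00552). Its 2 probe sets near background gave 0.08 and -0.07. Kank, an ankyrin-repeat scaffold gene, fell by 1.39 ± 0.10 (adjusted p = 9.95e-05), while its 3 further probe sets, dimmer ones, gave -0.07, 0.16 and -0.05 and were not called. Kal1, the anosmin gene, fell by 1.64 ± 0.28 (adjusted p = 0.0166). The Kal1 call was lost without replicate 2 or 3 of either group (up to 0.10).

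Among receptors, the list of 40 neuropeptide and receptor genes held 1 call (2.5%, near the 2.0% of all genes). Dh44-R2, a receptor for the diuretic hormone DH44, had 6.57, 6.0 and 6.24 in Pc/ph cells, against 8.42, 7.85 and 7.57 in control cells (-1.68 ± 0.30, adjusted p = 0.0209). It was lost without control replicate 1 or 2 or Pc/ph replicate 2 or 3 (up to 0.121). Of 155 detoxification genes 2 fell and none rose (1.29%, under the 2.0% of all genes): the UDP-glycosyltransferase gene Ugt37D1 (-1.77 ± 0.24, adjusted p = 0.00481) and Keap1, which encodes the inhibitor of the oxidative stress factor CncC (-1.0 ± 0.09, adjusted p = 3.21e-04). Keap1 had 7.56, 7.7 and 7.86 in Pc/ph cells, against 8.41, 8.96 and 8.74 in control cells.

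The maltase gene Mal-A5 (-1.26 ± 0.11, adjusted p = 2.62e-04) was the only call among 23 fat body and gut markers (4.35%). The piRNA pathway gene cuff (-0.88 ± 0.11, adjusted p = 0.00356) was the only call among 24 germline markers (4.17%). Of all genes 2.0% were called. In the list of 28 DNA damage, apoptosis and stress genes 2 rose and 1 fell (10.7% called). The rises were the cell death regulator gene Drat (1.56 ± 0.14, adjusted p = 4.37e-04) and the heat shock gene Hsp68 (0.45 ± 0.09, adjusted p = 0.0299). The fall was the DNA polymerase theta gene PolQ (-0.60 ± 0.10, adjusted p = 0.0176). The groups overlapped for Hsp68 and PolQ, and no gene of the list was called without the replicate block. Hsp68 stayed called only without control replicate 1 (up to 0.168 otherwise), and PolQ was lost without control replicate 1 or 2 or Pc/ph replicate 2 (up to 0.0796). The 30 largest falls hold 13 gene-number symbols, among them CG4408 (-2.79 ± 0.33) and CG4269 (-2.58 ± 0.10).

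No gene was called among 23 cell cycle and replication genes (differences -0.35 to 0.31), 37 ribosomal protein genes (-0.22 to 0.29), 15 RNA interference genes (-0.20 to 0.21) or 7 Y-linked genes (-0.18 to 0.07). The medians of these lists were -0.01, -0.02, 0.03 and -0.02, and 2, 0, 0 and 1 of their genes had an unadjusted limma p under 0.05.

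Both Pc/ph and PTIP cells received dsRNA, and a comparison between them therefore has dsRNA on both sides. Here 1815 probe sets were called (9.67%), 1015 higher in Pc/ph cells (5.41%) and 800 lower (4.26%). As genes these were 1468 (12.3%), 797 higher (6.65%) and 671 lower (5.6%), a far larger background than against control. The same Pc/ph arrays enter both comparisons, and each gene's values are given side by side without a test between comparisons. The 110 rises had a median difference of 1.04 from control and 1.15 from PTIP cells, and their median in PTIP cells against control was 0.07. The 130 falls had a median of -0.83 from control and -0.51 from PTIP cells, and their median in PTIP cells against control was -0.28.

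Of the 30 largest rises 28 were also higher than in PTIP cells. These genes were chosen by their values in the same Pc/ph arrays, so the count is not independent of that choice. Measured against PTIP cells, cad was higher by 4.7 ± 0.20, Esp by 4.54 ± 0.26, rib by 4.19 ± 0.17 and pnr by 3.93 ± 0.13 (adjusted p = 1.42e-06, 1.12e-05, 1.42e-06 and 5.19e-07). For nuf the difference from PTIP cells was 3.78 ± 0.21, where PTIP cells lay under control by -1.26 (adjusted p = 0.00892). The exceptions were Idgf1 (1.14, 95% interval 0.10 to 2.18, adjusted p = 0.189) and noc (0.80, 0.25 to 1.35, adjusted p = 0.0737). Psc was higher than in PTIP cells by 2.1 ± 0.18 (adjusted p = 1.36e-04) and Pc lower, at -2.27 ± 0.20 (adjusted p = 1.54e-04). Antp, not called against control, was higher than in PTIP cells (1.07 ± 0.29, adjusted p = 0.0437), as was RYBP (0.41 ± 0.10, adjusted p = 0.0264).

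Of the 30 largest falls, chosen by the same Pc/ph arrays, 18 were also lower than in PTIP cells, 1 was higher and 11 were not called against them. Cbs (-3.27 ± 0.25), Kal1 (-2.3 ± 0.28), out (-1.98 ± 0.20), fru (-1.45 ± 0.10) and Kank (-1.03 ± 0.10) were lower than in PTIP cells. Keap1 (-1.07 ± 0.09) and cuff (-0.86 ± 0.11), which are smaller falls, were lower there too. In contrast, eIF4B differed from PTIP cells by -0.06 (95% interval -0.44 to 0.33), daw by -0.11 (-0.58 to 0.36), Dh44-R2 by 0.15 (-0.51 to 0.82) and mamo by -0.33 (-0.75 to 0.08), and none of these 4 was called. Those intervals leave room for differences of either sign. Ugt37D1 was higher in Pc/ph than in PTIP cells (0.92 ± 0.24, adjusted p = 0.0387), where PTIP cells differed from control by -2.69. Drat, a rise against control, was lower than in PTIP cells (-1.39 ± 0.14, adjusted p = 3.73e-04), and so was Lac (-0.56 ± 0.13, adjusted p = 0.0263).

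The size of the response varied with the replicate. Among the 110 rises the same-numbered difference was larger in replicate 1 than in both other replicates for 56 genes and smaller than in both for 38. The median was 1.08 in replicate 1 and 1.05 for the mean of replicates 2 and 3. Among the 130 falls the corresponding counts were 63 and 26, with medians of -0.95 and -0.77. Single genes departed further. Idgf2 differed by 4.46 in replicate 1 and by 1.5 and 1.65 in replicates 2 and 3, Optix by 4.52, 1.67 and 1.97, CG5397 by 4.62, 2.21 and 2.26, and sens-2 by 3.23, 1.13 and 1.30. The leading rises were more even, with 5.65, 5.37 and 5.31 for Esp, and Kal1 and sdk went the other way, with their smaller differences in replicate 1 (-0.70 and 1.02).

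All 93 named genes that were called stayed called in a fit of replicates 2 and 3 alone. That fit called 1066 probe sets and kept 286 of the 287 called in the main fit, so nearly any call was kept there. The 93 genes were also chosen by calls from these same arrays, and their survival in that fit is not separate support. Of the same 93, 49 kept the call whichever of the 6 arrays was left out, and 26 kept it in the fit without the replicate block, among them Esp, cad, rib, pnr, oc, nuf, tsh, disco, disco-r, peb, Psc, Dfd, Cbs, Gyg and Keap1. Pc, fru, Treh, fbp, mirr, Optix and the Idgf genes were not called without the block.

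**Figure D5:**
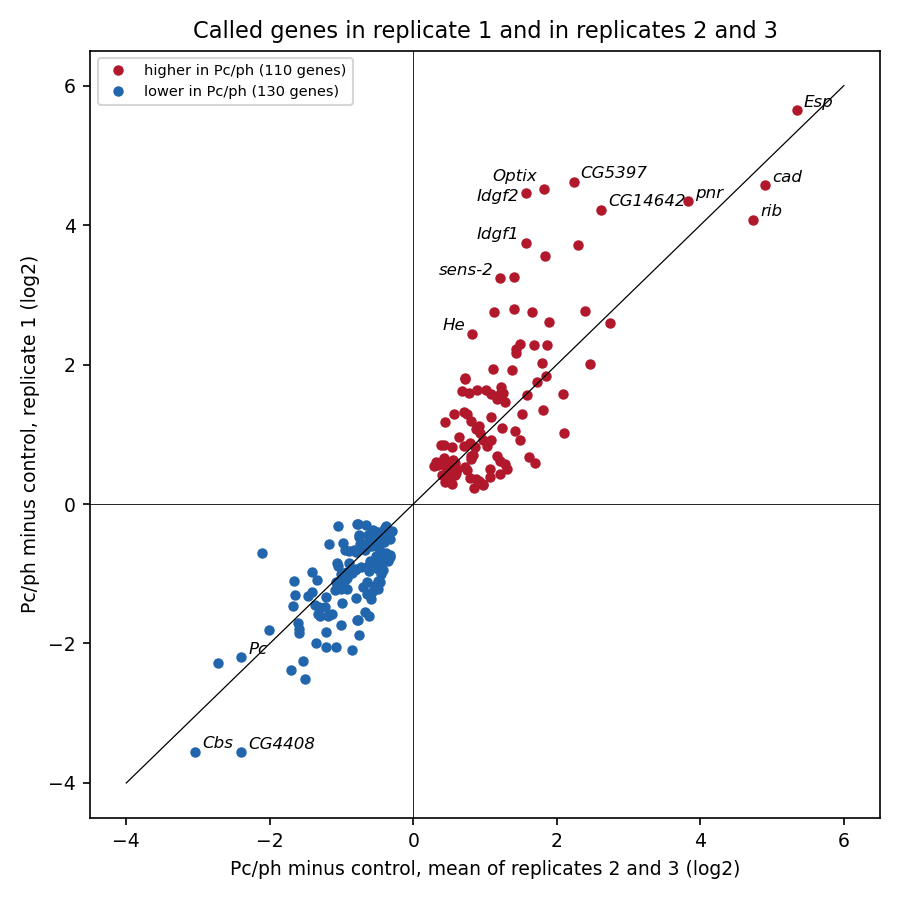
Pc/ph minus control on the log2 scale for the 240 called genes, in replicate 1 (vertical axis) and as the mean of replicates 2 and 3 (horizontal axis), with the line of equal difference. All points share their sign on both axes, and Idgf2, Optix, CG5397, Idgf1 and sens-2 lie far above the line.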

How the data were processed

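RNA was measured on Affymetrix Drosophila arrays, 12 in all. Per the submitters' processing notes the authors made the values with RMA and used limma, with no versions stated there. Log2 signals as deposited, 1 per probe set and array, were analysed without further normalization, with all sample columns assigned by title and 0 columns unused. Of 18952 probe sets 183 control sets were set aside. Platform annotation gave 13647 of the 18769 tested 1 symbol, 402 several and 4720 none. A gene table (Release 6 plus ISO1 MT) matched 13544 by gene number and served for names and gene order only. Genes are represented by the probe set with the highest mean over the 12 arrays. A gene counts as measured where it has a probe set with 1 symbol.

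Groups were compared with limma 3.58.1 in R 4.3.3 (lmFit and eBayes, two-sided), with 4 group means and a 3-level replicate block on all 12 arrays, 6 residual degrees of freedom and Benjamini-Hochberg adjustment over 18769 probe sets. The procedure was run on data simulated with independent normal noise and the same replicate block, which follow the fitted model. Such a run cannot show how the fit behaves where replicates differ in response size or are not paired by number. Same-numbered arrays correlated at 0.489 to 0.880 after group means were removed, over all pairs of groups, although replicate 2 minus replicate 3 correlated at -0.25 between control and Pc/ph cells. The pairing comes from the numbers in the titles.

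Named genes are the 30 largest rises and 30 largest falls called with the same sign in 3 pairs, the PRC1 and Hox genes measured, and every called member of the gene lists. Symbols that are only gene numbers are mostly left out. Members and lists were chosen with earlier results of these data known. Arrays give no read depth, and the number of arrays limits the precision.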

Additional observations from a re-analysis of the deposited data

Results flagged for a closer look

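For 20 named genes the Pc/ph effect differed with PTIP dsRNA, tested as an interaction in the same limma fit, in which 29 of 11982 genes (0.242%) were called. The genes were named from Pc/ph against control, which is 1 side of this contrast, so the direction of the differences is not independent of the choice. Values below are the Pc/ph effect in cells with PTIP dsRNA minus that in cells without it, on the log2 scale.

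The 10 rises had negative values. They were Esp (-3.93, adjusted p = 0.00299), rib (-2.41, 0.00462), disco-r (-1.88, 0.00136), cad (-1.78, 0.0413), Drat (-1.68, 0.0114), peb (-1.5, 0.00136), disco (-1.49, 0.0156), pnr (-1.49, 0.0114), gsb-n (-1.14, 0.0442) and vir-1 (-1.1, 0.0473). In Esp the Pc/ph effect was 1.52 with PTIP dsRNA and 5.44 without it, and in cad it was 3.01 with it and 4.79 without it. A negative value need not mean a return towards control. Drat differed from control by 1.56 in Pc/ph cells, 2.95 in PTIP cells and 2.83 in cells given all the dsRNAs. For cad these differences were 4.79, 0.09 and 3.10.

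The 10 falls had positive values. They were Cbs (2.51, adjusted p = 0.0257), CG4269 (2.23, 4.06e-04), CG14990 (1.7, 0.0413), fbp (1.64, 0.0143), Kank (1.57, 0.00299), CG9164 (1.5, 0.0132), CG4914 (1.4, 0.0108), CG31337 (1.33, 0.0365), fru (1.24, 0.0108) and Mal-A5 (1.19, 0.0145). In Cbs the Pc/ph effect was -0.70 with PTIP dsRNA and -3.21 without it. Cbs differed from control by 0.06 in PTIP cells and by -0.63 in cells given all the dsRNAs. Other genes were low with PTIP dsRNA alone and stayed low. CG4269 differed from control by -2.58 in Pc/ph cells, -2.21 in PTIP cells and -2.56 in cells given all the dsRNAs. For fbp these differences were -1.53, -1.91 and -1.80, and for CG9164 -1.42, -1.20 and -1.12. Pc itself differed from control by -0.745 in cells given all the dsRNAs (adjusted p = 0.0601) and by -2.33 in Pc/ph cells, an interaction of 1.65 (adjusted p = 0.0657). Its part in the values above was not tested.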

How the results depend on the processing

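Against control, 287 probe sets were called. The count was 37 without the replicate block (no replicate block), 1066 with replicates 2 and 3 only, 559 with only the 6 arrays compared and 20 with those 6 arrays and no replicate block. Leaving out 1 array in turn gave 134 to 376. Against PTIP cells the 1815 calls became 122 without the block, 3494 with replicates 2 and 3 only, 481 with only the 6 arrays compared, 34 with those and no block, and 858 to 1946 when 1 array was left out. Residual degrees of freedom were 6 in the main fit, 8 without the block, 3 with replicates 2 and 3 only, and 2 with only the 6 arrays compared and the block. The cause of the changed counts was not tested. Quantile and cyclic loess normalization, a mean-variance trend, a robust fit, a 2-level block and the upper range of mean values kept the control count within 1.5 times. The fit of only those 6 arrays with no block was chosen after seeing the data, as was the block with Pc/ph numbers 2 and 3 exchanged, which gave 288 calls against control. Of the 93 called named genes 13 were called under every setting. Differences near 0 of 4 genes that were not called changed sign when 1 array was left out, with ranges of -0.109 to 0.086 for l(3)73Ah, -0.0722 to 0.0679 for Sce, -0.0202 to 0.115 for Scm and -0.149 to 0.0395 for pb. Promoter motif counts were not run. Probe sets near the Y-linked range limit what can be said of falls at low signal.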

Other observations

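Genes of cyclic AMP signalling, picked after their values were seen, were called in both directions by limma. The adenylyl cyclase genes Ac76E (-0.90, adjusted p = 0.00657) and Ac13E (-0.66, adjusted p = 0.0209) fell, while the phosphodiesterase gene Pde8 (0.96, adjusted p = 0.0124) and the protein kinase A catalytic subunit gene Pka-C3 (0.88, adjusted p = 0.00356) rose. Pka-C3 had 5.96, 6.98 and 6.91 in Pc/ph cells, against 5.46, 5.87 and 5.88 in control cells. Sugar genes outside the fixed list, picked in the same way, also fell: PhKgamma, a phosphorylase kinase subunit gene (-0.51, adjusted p = 0.0317), and the triosephosphate isomerase gene Tpi (-0.61, adjusted p = 0.0357).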
